A study of Mus musculus with 18 samples.

Results

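The expression of 10 matrix genes was followed in mouse liver, taken as a fixed list of names: the small leucine-rich proteoglycans decorin (Dcn), biglycan (Bgn), lumican (Lum), fibromodulin (Fmod) and osteoglycin (Ogn), the large proteoglycan versican (Vcan), the thrombospondins Thbs1 and Thbs2, and the matrix partners Sparc and periostin (Postn). All 10 were among the 16245 genes of the table. The list was chosen with earlier results of these data known, so shares of all genes beside its counts are no unbiased contrast. RNA sequencing was done on liver of 18 male wild-type mice of the strain labelled C57BL/6 (C57BL/6J in the study's methods) that had been put on a NASH diet, which causes a fatty, inflamed and scarred liver, and kept at about 29 °C from 8 weeks of age. Of these, 6 mice received vehicle (Vehicle), 6 received recombinant GDF15, a stress cytokine that lowers food intake, by daily subcutaneous injection (GDF15), and 6 were untreated with GDF15 but given only the food that treated mice had eaten on the previous day (PairFed). The NASH diet, the housing and the wild-type genotype were shared by all 3 groups, so there was no lean reference, and the dose given to each sequenced mouse was not stated in the labels.

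Small leucine-rich proteoglycans are secreted proteins whose curved repeats lie on collagen fibrils and control how thick and how evenly spaced the fibrils become. Decorin and biglycan also bind growth factors such as TGF-β, and free biglycan is known as a ligand of Toll-like receptors. Thrombospondins, SPARC and periostin are matricellular proteins, which sit in the matrix and act on cells rather than bear load. In a scarring liver these genes are expressed mainly by stellate cells and other fibroblasts.

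The genes of the small leucine-rich proteoglycans lie in clusters in the mouse genome. In GENCODE on GRCm38, Dcn (chr10:97479609-97518143, plus strand, 8 exons in its longest coding transcript) and Lum (chr10:97565128-97572703, plus strand, 3 exons) belong to a run of 4 such genes spanning 202.8 kb. Ogn (chr13:49608046-49624501, plus strand, 7 exons) closes a run of 4 genes with Ecm2, Aspn and Omd over 119.7 kb. Fmod (chr1:134037254-134048277, plus strand, 3 exons) lies beside Optc and Prelp within 151.1 kb, whereas Bgn (chrX:73483602-73495933, plus strand, 8 exons) is in none of these runs. Vcan shares chromosome 13 with Ogn (chr13:89655312-89742509, minus strand). Thbs1 (chr2:118111876-118127133, plus strand) and Thbs2 (chr17:14665500-14694235, minus strand) had 22 exons each, as did Postn (chr3:54361109-54391037, plus strand), and Sparc (chr11:55394500-55423183, minus strand) had 10.

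Promoter windows around the RefSeq transcription starts (GRCm38.p6) were matched for 7 members in 8 windows, with a pair of windows for Postn. The 100 bases upstream of the start are shown for the member whose own level passed no test between groups (Ogn), for the member that was about equally lower against both control groups (Postn, its downstream start), and for Bgn, Sparc and Thbs2. Capitals mark the searched motifs: TATAAA (the core of a TATA box, sense strand only), GGAATG (a TEAD core), GGGCGG (a GC box) and GTCTG (a SMAD element), the last 3 on either strand, as well as TGANTCA (AP-1), also on either strand.
Ogn, chr13:49607915-49608014, plus strand: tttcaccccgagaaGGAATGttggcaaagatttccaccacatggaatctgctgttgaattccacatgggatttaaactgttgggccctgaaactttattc
Postn, chr3:54361007-54361106, plus strand: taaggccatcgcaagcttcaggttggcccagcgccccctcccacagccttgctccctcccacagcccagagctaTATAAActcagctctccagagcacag
Bgn, chrX:73483501-73483600, plus strand: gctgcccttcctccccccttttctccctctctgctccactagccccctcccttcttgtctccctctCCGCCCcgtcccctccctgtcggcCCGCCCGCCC
Sparc, chr11:55420081-55420180, minus strand: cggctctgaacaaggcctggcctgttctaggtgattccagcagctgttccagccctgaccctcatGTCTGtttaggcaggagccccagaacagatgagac
Thbs2, chr17:14694263-14694362, minus strand: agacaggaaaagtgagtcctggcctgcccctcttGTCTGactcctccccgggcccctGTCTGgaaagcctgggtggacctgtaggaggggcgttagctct

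Over the whole windows, TATAAA was found for Ogn and Postn and in 8.32% of all 32851 windows, and GGAATG for Ogn and in 14.7% of all. The letters GGGCGG occurred for Bgn and Vcan and in 35.7% of all windows, and GTCTG for Fmod, Postn, Sparc and Thbs2 and in 49.6% of all. TGANTCA was in 0 of the 8 windows of members and in 7.81% of all. In the Bgn window the last pair of GC boxes overlaps. These matches describe letters in a window and not binding.

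Library totals ranged from 16508864 to 35301853 estimated counts, and 3 counts, taken as the floor of detection, equalled 1.74 to 3.9 normalized counts. Pair-fed replicates 4 to 6 were the largest libraries of their group, at 25047723 or more, while pair-fed replicates 1 to 3 were at or below 17926397. Albumin, transthyretin and the other 4 hepatocyte markers were abundant in every group, as the label of liver requires. Levels below are normalized counts, that is estimated counts divided by the library's size factor, and a call means an adjusted p under 0.05 and a log2 fold change past 1 in size by the Wald test of DESeq2.

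Treatment with GDF15 was accompanied by lower matrix transcripts in liver against ad libitum vehicle. All 10 members had a lower fitted level in GDF15 than in Vehicle, with a median log2 fold change of -1.14 against 0.0024 for all genes tested. The adjusted p was under 0.05 for 9 members, where 17.5% of the 14667 genes tested were lower at that threshold. Both thresholds were passed by 6 members (Lum, Thbs1, Thbs2, Vcan, Postn and Sparc), against 5.37% of all genes. Every GDF15 sample was below every Vehicle sample for 7 members, against 6.94% of all genes.

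Against pair-fed mice, which ate as much as the treated mice, the same direction held for 9 of the 10 members and the differences were smaller for 8. This comparison uses the same GDF15 samples as the one before, so the results are given side by side and are not independent. The median log2 fold change of the members was -0.85 (all genes, -0.0008). The adjusted p was under 0.05 for 8 members (13.8% of 14353 genes lower at that threshold), both thresholds were passed by Thbs1, Vcan and Postn (2.75% of genes), and the samples did not overlap for Lum, Dcn, Postn and Sparc (5.23% of genes).

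Eating less without GDF15 gave no call among the members. In PairFed against Vehicle, 9 members had a lower fitted level with a median log2 fold change of -0.32. None of the 10 had an adjusted p under 0.05 (0.0% of 16242 genes were lower by either rule), and all 10 adjusted p-values were 0.998. Before adjustment, 1 member, Sparc, was under 0.05 in the Wald test of DESeq2, with a log2 fold change of -0.31 ± 0.14, and edgeR also called 0. All PairFed samples lay below all Vehicle samples for 0 members and for 0.0985% of genes.

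**Figure D1:**
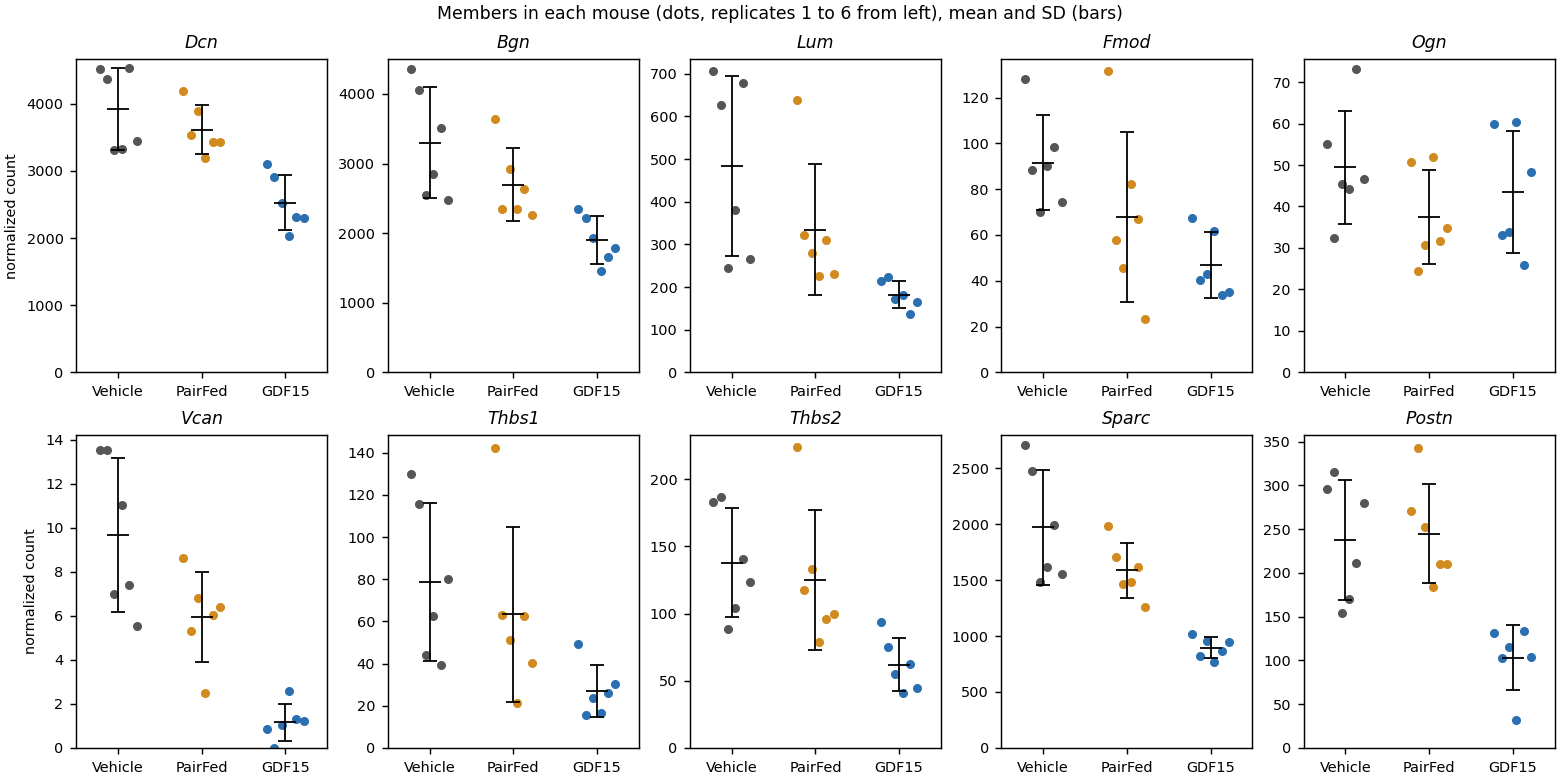
Normalized count (linear axis from 0) of each member in every mouse of the 3 groups, with replicates 1 to 6 from left to right as dots, the mean as a short bar and the SD as whiskers. For Dcn, Lum, Postn and Sparc all 6 GDF15 mice sit below every mouse of both other groups, whereas the Ogn groups overlap.

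Decorin was the most abundant member, and its fitted change against Vehicle was the smallest of the 9 members with an adjusted p under 0.05. Dcn ranged from 3310 to 4540 normalized counts in Vehicle with a median of 3904, from 3191 to 4188 in PairFed with a median of 3486, and from 2024 to 3110 in GDF15 with a median of 2414. The highest GDF15 mouse was below the lowest mouse of both other groups, and the Vehicle and PairFed ranges overlapped. The log2 fold change was -0.63 ± 0.11 (SE, n = 6 per group) against Vehicle (DESeq2 adjusted p = 8.5e-07) and -0.51 ± 0.11 against PairFed (DESeq2 adjusted p = 0.000115). GDF15 mice thus had 64.5% of the mean level of Vehicle and 70.0% of that of PairFed.

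Biglycan, the closest relative of decorin, followed it. Bgn ran from 2483 to 4356 normalized counts in Vehicle (median 3182), from 2263 to 3638 in PairFed (median 2491) and from 1462 to 2353 in GDF15 (median 1861). All GDF15 mice were below all Vehicle mice, but 1 GDF15 mouse was inside the pair-fed range. The fitted log2 fold change in GDF15 was -0.80 ± 0.16 against Vehicle (DESeq2 adjusted p = 7.76e-06) and -0.50 ± 0.16 against PairFed (DESeq2 adjusted p = 0.00866).

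Lumican, which binds fibrils and in other tissues carries keratan sulfate, showed the largest fold change of the 5 small leucine-rich proteoglycans. Lum ranged from 244 to 706 normalized counts in Vehicle with a median of 504, from 227 to 639 in PairFed with a median of 294.5, and from 138 to 223 in GDF15 with a median of 177. The 6 Vehicle mice were spread widely (coefficient of variation 43.7%) and the 6 GDF15 mice closely (17.5%), and no GDF15 mouse reached the lowest mouse of another group. On the log2 scale the fitted change was -1.41 ± 0.28 against Vehicle (DESeq2 adjusted p = 5.7e-06) and -0.87 ± 0.28 against PairFed (DESeq2 adjusted p = 0.00884). The second value leaned on 1 mouse, since pair-fed replicate 1 was at 638.9 and the next at 322.1. Without it, the log2 fold change was -0.58 and the adjusted p 0.0655, above the threshold (DESeq2).

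Fibromodulin, another fibril-binding relative of lumican, passed the adjusted p against Vehicle but not the fold threshold. Fmod lay between 69.8 and 128 normalized counts in Vehicle (median 89.3), between 23.3 and 131 in PairFed (median 62.3) and between 33.8 and 67.6 in GDF15 (median 41.6). GDF15 and Vehicle did not overlap, while the pair-fed mice spanned the whole range of GDF15. The log2 fold change against Vehicle was -0.96 ± 0.30 (DESeq2 adjusted p = 0.00674), and it passed -1 without Vehicle replicate 3 or 6 or GDF15 replicate 1 or 4 (-1.10 to -1.02). Against PairFed it was -0.52 ± 0.30, with an interval of -1.11 to 0.07 (DESeq2 adjusted p = 0.195). Leaving out pair-fed replicate 6, the lowest mouse of its group, gave -0.71 and an adjusted p of 0.0284, and leaving out replicate 1, the highest, gave -0.22 and 0.600 (DESeq2).

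Osteoglycin, also called mimecan, was the exception. Ogn ran from 32.3 to 73.1 normalized counts in Vehicle (median 46.0), from 24.5 to 52.0 in PairFed (median 33.3) and from 26.0 to 60.4 in GDF15 (median 41.0). The 3 groups overlapped throughout. The log2 fold change was -0.18 ± 0.24 against Vehicle (95% interval -0.66 to 0.30, DESeq2 adjusted p = 0.611) and 0.22 ± 0.25 against PairFed (95% interval -0.26 to 0.71, DESeq2 adjusted p = 0.544). The interval against Vehicle does not reach a log2 fold change of -1.

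Versican, a large chondroitin sulfate proteoglycan that binds hyaluronan, was the least abundant member and was below the floor of 3 counts in all 6 GDF15 libraries. Its estimated counts were 5 to 15 per library in Vehicle, 3 to 11 in PairFed and 0 to 2 in GDF15, or 5.55 to 13.6, 2.47 to 8.62 and 0.0 to 2.57 normalized counts with medians of 9.23, 6.21 and 1.11. GDF15 and Vehicle did not overlap, and the highest GDF15 mouse slightly exceeded the lowest pair-fed mouse. Summed over the group, 6 counts in GDF15 stood against 59 in Vehicle and 41 in PairFed. Scaled by size factors, this was 11.0% of the level of Vehicle (95% exact counting interval 3.9 to 25.5%) and 18.7% of that of PairFed (6.49 to 44.3%). The fitted log2 fold changes of -3.15 ± 0.67 and -2.42 ± 0.69 rest on these few counts (DESeq2 adjusted p = 3.76e-05 and 0.0032) and are no bounds, and the low-count filter of edgeR removed Vcan. With replicates 4 to 6 alone the adjusted p against Vehicle was 0.0859 (DESeq2).

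The thrombospondins were both lower. Thrombospondin 1 activates latent TGF-β and binds CD36 and CD47. Thbs1 ranged from 39.2 to 130 normalized counts in Vehicle (median 71.4), from 21.4 to 142 in PairFed (median 56.8) and from 15.49 to 49.4 in GDF15 (median 24.8). Only 1 GDF15 mouse, replicate 1, entered the Vehicle range, while 4 of the 6 were inside the pair-fed range. The fitted log2 fold change in GDF15 was -1.54 ± 0.40 against Vehicle (DESeq2 adjusted p = 0.00073) and -1.22 ± 0.40 against PairFed (DESeq2 adjusted p = 0.0109). Without pair-fed replicate 1, at 142.2 and next to 62.92, the second became -0.81 with an adjusted p of 0.086 (DESeq2) and the call was lost.

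Thrombospondin 2 lacks the TGF-β activating sequence of its relative and takes part in fibril assembly. Thbs2 lay between 88.4 and 186.5 normalized counts in Vehicle (median 132), between 79.2 and 224 in PairFed (median 108) and between 41.1 and 93.6 in GDF15 (median 58.8). In each comparison, 1 GDF15 mouse, replicate 1, was inside the range of the other group. On the log2 scale the fitted change was -1.14 ± 0.26 against Vehicle (DESeq2 adjusted p = 0.000109) and -0.99 ± 0.26 against PairFed (DESeq2 adjusted p = 0.00118), the latter just short of the fold threshold. Leaving out pair-fed replicate 1 gave -0.74, and leaving out GDF15 replicate 1 or 2 or pair-fed replicate 2, 4, 5 or 6 took it past -1 (-1.15 to -1.01).

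SPARC is a collagen-binding glycoprotein of remodelling tissue and had the smallest adjusted p of the members. Sparc ran from 1481 to 2703 normalized counts in Vehicle (median 1805), from 1259 to 1987 in PairFed (median 1551) and from 769 to 1019 in GDF15 (median 904). No GDF15 mouse overlapped with either group. The log2 fold change was -1.14 ± 0.15 against Vehicle (DESeq2 adjusted p = 6.06e-13) and -0.82 ± 0.15 against PairFed (DESeq2 adjusted p = 5.41e-07).

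Periostin, a matricellular protein that binds integrins, had nearly the same mean in Vehicle and PairFed. In GDF15 it was lower by a like amount against both. Postn lay between 154 and 315 normalized counts in Vehicle (median 245), between 184 and 342 in PairFed (median 231) and between 32.1 and 134 in GDF15 (median 110). The GDF15 mice were below all others, and replicate 4 was far below the rest at 32.1. The fitted log2 fold change in GDF15 was -1.20 ± 0.25 against Vehicle (DESeq2 adjusted p = 1.93e-05) and -1.24 ± 0.25 against PairFed (DESeq2 adjusted p = 1.29e-05). Leaving out any 1 mouse kept the second value between -1.33 and -1.06. In PairFed against Vehicle it was 0.04, with an interval of -0.44 to 0.52.

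**Figure D2:**
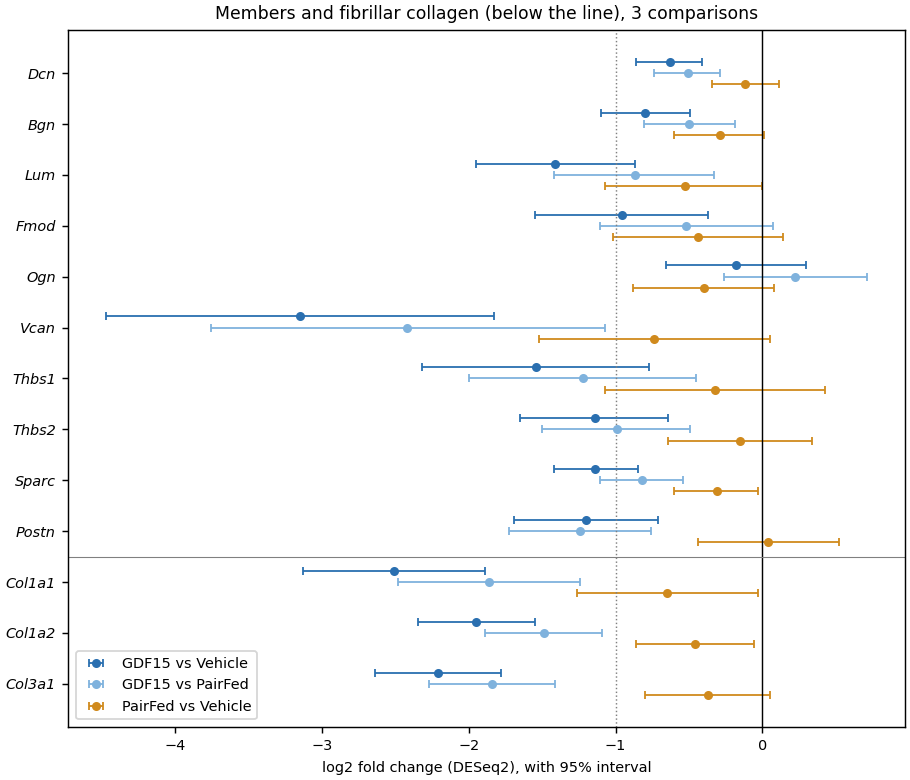
Fitted log2 fold change (DESeq2, horizontal axis) with its 95% interval for the 10 members and, below the line, for 3 fibrillar collagen genes, in 3 colours for the 3 comparisons, with dotted and solid lines at -1 and 0. The collagen values against Vehicle, -2.51 to -1.95, lie left of all members but Vcan, and the interval of Ogn crosses 0 in each comparison.

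Per kilobase of the longest coding transcript, the order of levels in Vehicle was Dcn (mean 2229 normalized counts per kb), Bgn (1365), Sparc (857), Lum (198), Postn (74.1), Fmod (29.4), Thbs2 (23.4), Ogn (19.3), Thbs1 (13.5) and Vcan (0.779). The ranges over the 6 mice overlapped between the neighbours Bgn and Sparc, Fmod and Thbs2, Thbs2 and Ogn, and Ogn and Thbs1, so these neighbours are not separated. Dcn made up 46.4% of the summed level per kb of the 10 members in Vehicle, 49.6% in PairFed and 52.0% in GDF15. In GDF15 the ranges overlapped between each pair of neighbours from Postn through Ogn, Fmod and Thbs2 to Thbs1, so the places of these 5 are not separated there. Lengths from all exons of a gene gave the same order.

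The fibrillar collagens that these proteins bind had larger fitted falls against Vehicle than all members but Vcan, with log2 fold changes of -2.51 ± 0.32 for Col1a1, -1.95 ± 0.20 for Col1a2 and -2.21 ± 0.22 for Col3a1 (DESeq2 adjusted p = 2.88e-13, 7.86e-19 and 5.78e-21). The ratio of each member to the summed normalized count of these 3 genes was compared on the log2 scale, with 1 added to each level, by exact permutation of the group labels among the 12 mice compared (two-sided, smallest p 0.00216), adjusted over 30 tests. This tests the difference between the same changes in level and is no separate evidence. Any gene that fell less than these collagens gains in this ratio, and the median log2 fold change of all genes against Vehicle was 0.0024. The share of all genes with a higher ratio was not computed, so the counts below are not read as particular to the members. Against Vehicle the ratio was higher in GDF15 for 7 members. It rose by 1.96 for Ogn, 1.53 for Dcn, 1.39 for Bgn, 1.19 for Fmod, 1.06 for Sparc and 1.02 for Thbs2 (exact permutation adjusted p = 0.00541 for each), and by 0.87 for Lum (exact permutation adjusted p = 0.00999). For Thbs1 (0.69) and Postn (0.89) the adjusted exact permutation p was 0.0879. No ratio is read for Vcan, since in GDF15 it is below the floor and the added 1 sets its value. Against PairFed the ratio of 7 members also passed, with differences from 0.74 for Thbs2 to 1.91 for Ogn. In PairFed against Vehicle it passed for 0 members, and 1 was under 0.05 before adjustment, Postn, at 0.52 (exact permutation adjusted p = 0.0563).

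Decorin served as the reference for unequal change within the members, over 27 tests. Relative to Dcn, 3 ratios passed in GDF15 against Vehicle: Sparc with a log2 difference of -0.47 (exact permutation adjusted p = 0.0292), Thbs2 with -0.51 (exact permutation adjusted p = 0.0351) and that of Vcan, whose size is not read for the reason above. Against PairFed, 2 passed, Postn at -0.82 (exact permutation adjusted p = 0.0292) and again Vcan. On CPM with 1 added, 0 passed in either comparison, and leaving out 1 sample left 1 against PairFed for GDF15 replicates 1, 2, 3 and 6 and pair-fed replicates 1, 2, 3, 5 and 6. The ratio of Bgn to Dcn was at -0.15 and 0.02 in these comparisons (exact permutation adjusted p = 0.135 and 0.74). Ogn was at 0.43 and 0.72 relative to Dcn (exact permutation adjusted p = 0.243 and 0.085), and Lum at -0.66 and -0.27 (exact permutation adjusted p = 0.0779 and 0.268). Between PairFed and Vehicle, 0 ratios to Dcn passed, and 0 were under 0.05 before adjustment (smallest exact permutation p = 0.0649).

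**Figure D3:**
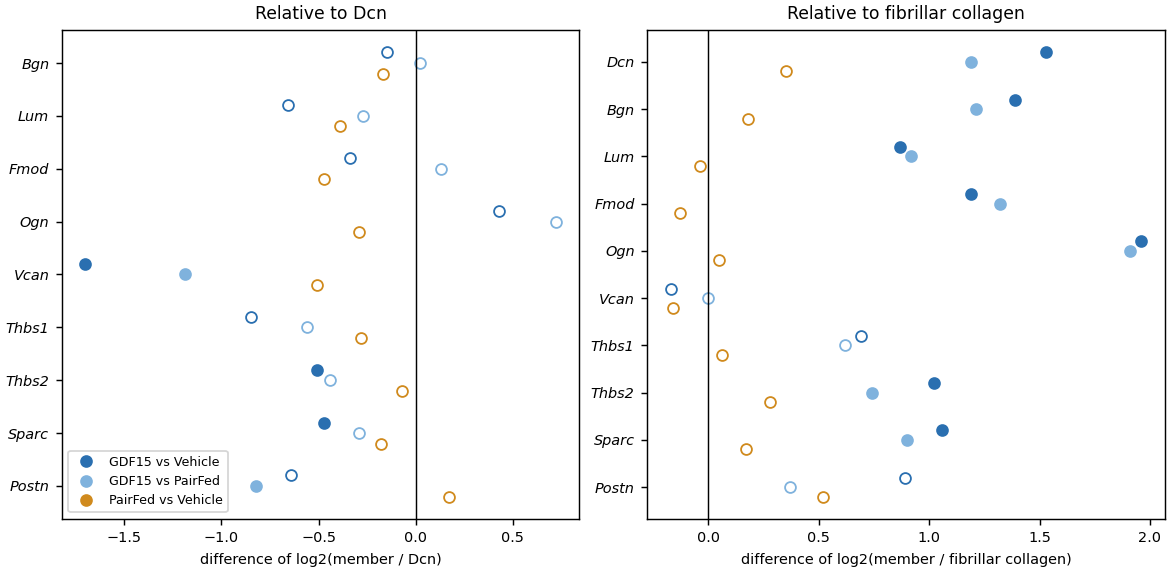
Difference between groups in the log2 ratio of each member to Dcn (left) and to the sum of Col1a1, Col1a2 and Col3a1 (right), in 3 colours for the 3 comparisons, with filled dots at an adjusted exact permutation p under 0.05. Relative to collagen 7 members are higher in GDF15 than in both other groups, and relative to Dcn the filled dots are Sparc and Thbs2 against Vehicle, Postn against PairFed, and Vcan in both, where the 1 added sets its value.

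The mice of a group differed from each other in a shared way for most members. Replicate 1 had the highest value of its group for 6 members in Vehicle, 8 in PairFed and 6 in GDF15, and the highest summed fibrillar collagen in each group (8297, 6158 and 1620 normalized counts). Replicate 4 was lowest for 6 members in PairFed and 5 in GDF15, and Vehicle replicate 3 for 6. The samples' numbers come from their titles and the labels tie them to no litter, batch or day. As deviations from the group means of variance-stabilised values over the 18 samples, Dcn and Bgn had the highest Pearson value (0.92, Spearman 0.87) and Dcn and Thbs2 the highest Spearman value (0.90, Pearson 0.86), whereas Ogn and Postn were at a Pearson value of -0.42. These are descriptions with no test, and both genes of a pair were measured in the same libraries and share their depth.

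Among 10875 genes with a mean of at least 50 normalized counts, the gene whose deviations were most like those of a member was Islr for Bgn (Pearson 0.95, Spearman 0.93), Tspan8 for Lum (0.94 and 0.91), Gdf10 for Thbs2 (0.93 and 0.92) and Igfbp7 for Sparc (0.92 and 0.85). It was Rgs5 for Postn (0.91 and 0.84), Ddr2 for Thbs1 (0.90 and 0.86) and Ralgds for Dcn (0.89 and 0.89). The values were lower for Vcan with Vasp (0.86 and 0.79), for Fmod with Cavin1 (0.85 and 0.77) and for Ogn with Sulf1 (0.77 and 0.67). The other members were among the 50 nearest genes of Bgn (Dcn, Thbs2 and Lum), of Dcn and Thbs2 (with Bgn in both) and of Sparc (Bgn), and of Thbs1 (Thbs2), while for Lum, Fmod, Ogn, Vcan and Postn there were 0.

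The relatives of the members changed less uniformly. Of 8 other small leucine-rich proteoglycans tested, 2 were lower and 1 was higher against Vehicle (DESeq2 adjusted p under 0.05), with a median of -0.36, where 17.5% of all genes were lower. Prelp, the neighbour of Fmod, was at -0.43 ± 0.12 (DESeq2 adjusted p = 0.00267), and Omd, the neighbour of Ogn, at -0.40 ± 0.15 (DESeq2 adjusted p = 0.0327). The higher gene was Nyx, with a mean of 1.51 normalized counts in Vehicle and 5.03 in GDF15. Of the other thrombospondins, Thbs3 was tested and was at -0.60 ± 0.29 (DESeq2 adjusted p = 0.0949). Of the lecticans, link proteins and hyaluronan synthases, 1 of 3 was lower and 1 higher. The lower gene was Hapln1 at -1.96 ± 0.58 (DESeq2 adjusted p = 0.00385), with means of 14.5 normalized counts in Vehicle and 3.8 in GDF15. The higher was Hapln4 at 0.66 ± 0.21 (DESeq2 adjusted p = 0.00835).

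Of 16 other matricellular genes tested, 12 were lower and 1 was higher against Vehicle (median -0.84), where 17.5% of all genes were lower. Against PairFed, 7 of 15 were lower and 1 was higher (median -0.58), where 13.8% of all genes were lower. The largest against Vehicle were Spp1, osteopontin, at -1.99 ± 0.36 and Tnc, tenascin C, at -1.96 ± 0.32 (DESeq2 adjusted p = 6.6e-07 and 5.86e-08). Fstl1 was at -1.14 ± 0.20 and Smoc2 at -1.0 ± 0.20 (DESeq2 adjusted p = 1.91e-07 and 6.9e-06). The higher one was Smoc1, a relative of Sparc, at 0.37 ± 0.07 (DESeq2 adjusted p = 1.47e-05).

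The enzymes that build the glycosaminoglycan chains of these proteoglycans had 5 lower and 1 higher of 26 at an adjusted p under 0.05 against Vehicle, with a median of -0.26, where 17.5% of all genes were lower. Against PairFed, 4 were lower and 2 higher, where 13.8% of all genes were lower, so both counts of lower enzymes were near the share of all genes. The lower ones included Chst14, which sulfates dermatan, at -0.83 ± 0.18, Chpf, a chondroitin polymerising factor, at -0.76 ± 0.19, and Dse, which makes dermatan from chondroitin, at -0.33 ± 0.13 (DESeq2 adjusted p = 6.41e-05, 0.000691 and 0.0375). The enzymes that start the chain differed in direction: Xylt1, at a mean of 20.9 normalized counts in Vehicle and 7.19 in GDF15, was at -1.55 ± 0.40, and the more highly counted Xylt2 was at 0.20 ± 0.07 (DESeq2 adjusted p = 0.000846 and 0.0198).

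Of 9 proteases and procollagen processing genes tested, 7 were lower and 1 higher against Vehicle (median -0.79), where 17.5% of all genes were lower. Against PairFed, 6 were lower and 1 higher, where 13.8% of all genes were lower. Adamts9 was at -1.56 ± 0.35 against Vehicle and Adamts5 at -1.19 ± 0.27 (DESeq2 adjusted p = 9.1e-05 and 0.000157). Both are proteases known to cut versican. Htra1, a secreted serine protease, was at -1.24 ± 0.24, and Pcolce, an enhancer of procollagen processing, at -0.79 ± 0.11 (DESeq2 adjusted p = 3.3e-06 and 4.7e-10). The higher gene was Bmp1, the procollagen proteinase that Pcolce enhances, at 0.40 ± 0.08 (DESeq2 adjusted p = 2.33e-05).

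Receptors of the members moved in both directions, with 6 lower and 4 higher of 15 against Vehicle (median -0.20) and 3 and 2 against PairFed. Of all genes tested, 17.5% were lower against Vehicle and 13.8% against PairFed at an adjusted p under 0.05. No share of all genes that were higher is given for this or the other lists. Counts of higher genes, those of the marker lists included, are therefore not read against all genes. Tlr2, a receptor of biglycan, was at -1.34 ± 0.21, and Cd44, a receptor of hyaluronan, at -1.21 ± 0.20 (DESeq2 adjusted p = 9.77e-09 and 1.06e-07). Cd36, a receptor of both thrombospondins that also takes up fatty acids, was at -0.79 ± 0.13 (DESeq2 adjusted p = 2.89e-08), while Egfr, which decorin can bind and which hepatocytes express, was at 1.20 ± 0.32 (DESeq2 adjusted p = 0.00107).

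Of 10 immediate early genes, which respond within minutes to stimuli and to tissue handling, 4 were lower and 2 higher against Vehicle, and 3 and 3 against PairFed. The shares of all genes that were lower were 17.5% and 13.8%. Atf3 was at -1.37 ± 0.23 and Jun at -0.54 ± 0.21, while Junb was at 0.54 ± 0.21 and Ier2 at 0.45 ± 0.09 (DESeq2 adjusted p = 5.62e-08, 0.0393, 0.0371 and 3.14e-06).

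**Figure D4:**
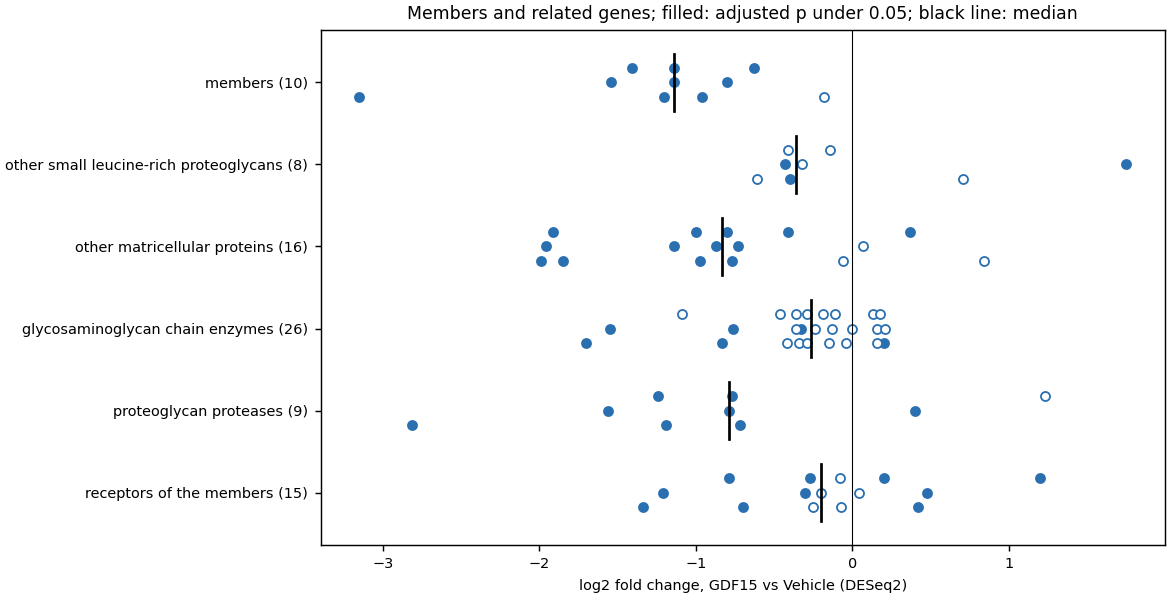
Fitted log2 fold change (DESeq2, horizontal axis) of GDF15 against Vehicle for each member and for the genes of 5 related lists that were tested, with filled dots at an adjusted p under 0.05 and a black line at the median of each list. The medians of the members (-1.14), the matricellular genes (-0.84) and the proteases (-0.79) lie left of those of the other proteoglycans (-0.36), chain enzymes (-0.26) and receptors (-0.20).

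Markers of the cells that could carry these transcripts moved too, and their part in the results was not tested. In bulk tissue, fewer cells of a type and less RNA per cell cannot be told apart. Beside the marker counts below, 17.5% of all genes were lower against Vehicle and 13.8% against PairFed at an adjusted p under 0.05. Of 8 stellate cell markers, 6 were lower against Vehicle (median -0.44), and their summed level was 5353 to 6765 normalized counts in Vehicle, 6206 to 7311 in PairFed and 3360 to 6196 in GDF15, so that the GDF15 mice overlapped with Vehicle but were below PairFed. The most abundant of these markers, Ecm1, was not lower (0.18 ± 0.14, DESeq2 adjusted p = 0.336) and weighs most on the sum. Its means were 2149 in Vehicle, 2582 in PairFed and 2432 in GDF15. Of 8 portal fibroblast markers, 5 were lower (median -0.67), with sums of 520 to 888, 458 to 895 and 262 to 436, GDF15 being below both groups. The 6 smooth muscle markers had 2 lower (286 to 577, 247 to 716 and 154 to 311 normalized counts summed), and the 6 endothelial markers 1 lower (2305 to 3196, 2471 to 3260 and 1645 to 2899).

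Hepatocyte markers moved the other way, with 5 of 6 higher against Vehicle (median 0.48), and their sum was above that of Vehicle in all 6 GDF15 mice. Of the macrophage markers, 5 of 7 were lower (2855 to 5444, 2912 to 4942 and 2020 to 4124 summed), and of the platelet markers, a source of stored thrombospondin 1, 1 of 4 tested (72.2 to 121, 76.7 to 116 and 74.7 to 103 summed). All 5 cholangiocyte markers (240 to 740.5, 198 to 524 and 156 to 277 summed) and 3 of 6 mesothelium markers (161 to 447, 101 to 336.5 and 120 to 351 summed), with Krt19 in both lists, were lower against Vehicle. Against PairFed, 0 of the 5 cholangiocyte (median -0.40) and 0 of the 6 mesothelium markers (median -0.01) were lower by DESeq2, by edgeR or before adjustment, while 5 stellate cell, 3 portal fibroblast, 4 macrophage, 2 endothelial and 1 smooth muscle marker were lower and 5 hepatocyte markers higher (DESeq2). Adipoq and Plin1, the defining adipocyte genes, had means of 0.335 and 1.10 normalized counts in Vehicle, and Scx, a tendon gene, of 2.14, while Cfd alone carried the adipocyte sum. In pair-fed replicate 1, the mouse with the highest level of 8 members, the summed cholangiocyte (523.6), portal fibroblast (895.3), smooth muscle (716.4) and platelet markers (116.4, next 99.18) were also the highest of the group, and the summed stellate cell markers (6206) the lowest.

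The comparison with pair-fed mice gave different counts with the smaller and the larger pair-fed libraries. With only the 3 smaller pair-fed libraries, replicates 1 to 3, 5 members were called lower in GDF15 than in PairFed, and with only the 3 larger ones, replicates 4 to 6, 0 were called by DESeq2. With the larger libraries, Postn was at -0.96, Sparc at -0.70 and Dcn at -0.40 (DESeq2 adjusted p = 0.0156, 0.00166 and 0.0353), and the 9 members lower in the full comparison were again lower in fitted value. No adjusted p was given for Vcan, at -2.20. The smaller group includes replicate 1, so depth and this mouse cannot be told apart in that split.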

How the data were processed

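Per the labels and the study's methods, the authors prepared strand-specific libraries from liver RNA, trimmed the reads with Trim Galore and quantified transcripts with Salmon against mm10. Tool versions are not given in the sources used here. The deposited table holds 1 estimated count per gene and sample that the authors had rounded to a whole number, not normalized, in 18 columns mapped by title, and its lowest row total was 5. Salmon shares reads between similar transcripts, so levels of near-identical genes would be uncertain.

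The main test followed the study: DESeq2 1.42.0 in R 4.3.3 (Wald test, 18 samples, group as the factor, median-of-ratios size factors, independent filtering), with Benjamini-Hochberg adjustment over all genes and thresholds of 0.05 for the adjusted p and 1 for the log2 fold change. The 3 comparisons were GDF15 against Vehicle, GDF15 against PairFed and PairFed against Vehicle. Each sample is a mouse and the p-values measure the spread between these mice. No pair of libraries was identical. Ratios used log2(normalized count + 1) and exact two-sided permutation tests (scipy 1.17.1). The fit was tested on simulated data. Alternatives were edgeR 4.0.16 (quasi-likelihood), TMM sizes, filters, fold thresholds, subsets of libraries, a replicate block and leaving out each sample, and the edgeR counts of marker lists were added after seeing the data.

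The members and lists were chosen with earlier results of these data known. All 10 members are named. Of each related list, the counts by direction at an adjusted p under 0.05 in GDF15 against Vehicle and up to 4 genes with the largest log2 fold change in size and a mean of at least 20 normalized counts are given. Nyx, Thbs3, Hapln1, Smoc1, Xylt1, Bmp1, Ecm1 and the adipocyte and tendon genes were named outside this rule, after their values were seen. Gene positions are from GENCODE M21 on GRCm38, which is mm10, and promoter windows from RefSeq on GRCm38.p6. The exact counting intervals of Vcan and the floors cover counting error only, and PCR copies could not be told from separate molecules. The intervals of fold changes come from the DESeq2 standard errors, which include the fitted spread between mice.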

Additional observations from a re-analysis of the deposited data

Results flagged for a closer look

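In 4 of the 30 combinations of a member and a group, 1 mouse stood apart from the other 5 by Dixon's test at the 95% level, where chance flags about 1 in 20, or 1.5 of 30. Pair-fed replicate 1 was the high mouse in 3 of them, with Lum at 638.9 normalized counts (next highest 322.1), Thbs1 at 142.2 (next 62.92) and Thbs2 at 224.1 (next 132.9). GDF15 replicate 4 was the low mouse for Postn, at 32.11 normalized counts with the next lowest at 102.3. Without pair-fed replicate 1, the log2 fold change of GDF15 against PairFed was -0.58 for Lum, -0.81 for Thbs1 and -0.74 for Thbs2 (DESeq2 adjusted p = 0.0655, 0.086 and 0.00859).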

How the results depend on the processing

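No member changed direction past a threshold under any alternative. Of the settings tried for single members, 835 left the call as it was, 14 lost it and 21 gained it. With the fold threshold inside the Wald test of DESeq2, 0 members were called against Vehicle and 0 against PairFed. Against PairFed, dropping the fold threshold gave 8, the 3 smaller pair-fed libraries 5, the 3 larger 0 and replicates 4 to 6 alone 1, and edgeR, whose filter removed Vcan, gave 2. Against Vehicle the count was 5 to 9 under all other alternatives (edgeR 5), and in PairFed against Vehicle it was 0 under all.

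The ratios were less stable. On CPM with 1 added, 0 ratios to Dcn passed against Vehicle and 0 against PairFed, and 1 ratio to fibrillar collagen passed in PairFed against Vehicle. Leaving out 1 sample gave 1 to 2 ratios to Dcn against PairFed and 0 to 1 ratios to collagen in PairFed against Vehicle.

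Same-numbered samples deviated together little on average between GDF15 and Vehicle (mean correlation -0.0494) and between GDF15 and PairFed (0.0273). Between PairFed and Vehicle the mean was 0.209 (0.028 to 0.61, 4 of 6 pairs over 0.1), against -0.0419 for other numbers. The labels tie the numbers to no litter, batch or day, and they were not taken to pair the mice. With the replicate block, DESeq2 called 6, 3 and 0 members in the 3 comparisons, as without it. The block changed the standard errors against Vehicle, from 0.28 to 0.20 for Lum, 0.115 to 0.081 for Dcn and 0.67 to 0.72 for Vcan. A sign-flip test over the 6 pairs passed 0 ratios to Dcn and 0 to collagen in both comparisons with GDF15. Its smallest p is 0.0312, so these counts say nothing about stability.

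Depth limits Vcan, with at most 2 counts in a GDF15 library, and 3 mice against 3 cannot give an exact p below 0.1.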
